A study of Mus musculus with 16 samples.

Results

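Subchondral bone from mice killed 6 weeks after knee surgery was compared with subchondral bone from mice killed 1 week after it, with sham and destabilised joints pooled. The comparison took all 8 arrays labelled with the later time and all 8 labelled with the earlier time, which together are the whole set of 16 arrays. All animals were male wild-type C57BL6 mice that were 10 to 12 weeks old at surgery. At each time, 4 mice had undergone destabilization of the medial meniscus (DMM), in which the medial menisco-tibial ligament was cut, and 4 had undergone a sham operation, in which that ligament was seen but left whole. Both knees of every mouse were operated on, their joint capsules were opened and flushed with saline, and 1 joint of each mouse gave RNA. That RNA came from laser-dissected cryosections of the medial tibial plateau, 10 µm thick, pooled within the joint after decalcification, and 100 ng was labelled with Cy3 for a single-colour Agilent mouse array. Unoperated mice of either age were not analysed here, so time after surgery and age of the mouse cannot be told apart. The mice had been allocated at random to surgery and time of death, and the p-values below measure the spread between these animals.

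Subchondral bone is the plate of bone and the marrow-filled trabecular bone that lie beneath the articular cartilage. Osteoblasts lay down its collagen matrix, osteocytes live buried in that matrix and osteoclasts resorb it, while the marrow between the trabeculae makes red cells, platelets and white cells. Opening a joint starts a wound response in which fibroblasts lay down new collagen, and cutting the meniscal ligament adds a mechanical change that leads over weeks to osteoarthritis and thicker subchondral bone.

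Levels are given as log2 of the background-corrected, processed signal minus the 75th percentile of the same array, so that a level of 0 is the 75th percentile and a difference of 1 is a doubling. Differences are always 6 weeks minus 1 week, with their standard error (SE), from a fit that held surgery and slide as terms, and a gene was called when its adjusted p in limma lay under 0.05. The 75th percentile itself ranged from 332 to 883 signal units over the arrays, between 65.3% and 79.6% of probes were well above background, and no spot was saturated. Neither measure differed by time beyond the spread between arrays (2-sided exact permutation p = 0.373 and p = 0.308). Markers of bone were bright in both groups: Bglap, which encodes osteocalcin, had levels of 5.35, 6.40 and 8.01 (lowest, median and highest array) at 1 week and 5.68, 7.03 and 7.51 at 6 weeks, and Acp5, the osteoclast acid phosphatase, had 8.29, 8.83 and 9.11 against 7.34, 8.47 and 8.74. Marrow markers were bright as well, with the alpha globin gene Hba-a1 between 9.03 and 10.43 on all arrays. Bone and marrow transcripts were both present, and in such bulk RNA fewer cells of a type and less RNA per cell cannot be told apart. One 6-week array stood apart: sham replicate 2 lay at 176.5 on the first principal component, which held 41.6% of the variance, while the other 15 arrays lay between -69.67 and 71.87. The second component, with 13.9% of the variance, separated the times without overlap, from -49.19 to -3.035 at 1 week and from 8.584 to 49.31 at 6 weeks.

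Of 28249 genes tested, 849 were called (3.01%), of which 579 were higher at 6 weeks (2.05%) and 270 were lower (0.956%). Every one of the 849 had the same sign on both slides and after both surgeries. The calls came from these same arrays pooled, which favours such agreement, so it is not a separate test. The 2 slides held 4 arrays of each time; on either slide alone no gene passed in limma, with 2728 and 4527 genes at an unadjusted p under 0.05. The median difference over all genes was 0.04 and 55.6% of genes had a positive difference. The 8 arrays of one time did not overlap the 8 of the other in 186 genes (0.658%), 104 of them higher (0.368%) and 82 lower (0.29%) at 6 weeks. The number of calls moved with single arrays: 2468 genes were called without 6-week sham replicate 2, among them all 849, while leaving out one of 9 other arrays cut the count by more than 1.5 times. Those counts were 291 without 1-week sham replicate 2, 318 without 1-week DMM replicate 4, 346 without 1-week sham replicate 4, 354, 373 and 411 without 6-week DMM replicates 1, 2 and 4, 374 and 478 without 6-week sham replicates 1 and 3, and 536 without 1-week DMM replicate 2. All 84 called genes among those named by rule kept their sign without any single array and under every other alternative processing that was run, and 28 of them also stayed called without any single array, among them Alas2, Fech, Tal1, Mmp9, Timp1, Oas2, Oas1a, Nr4a2, Klf4, Slc2a4 and Serpina1a.

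**Figure D1:**
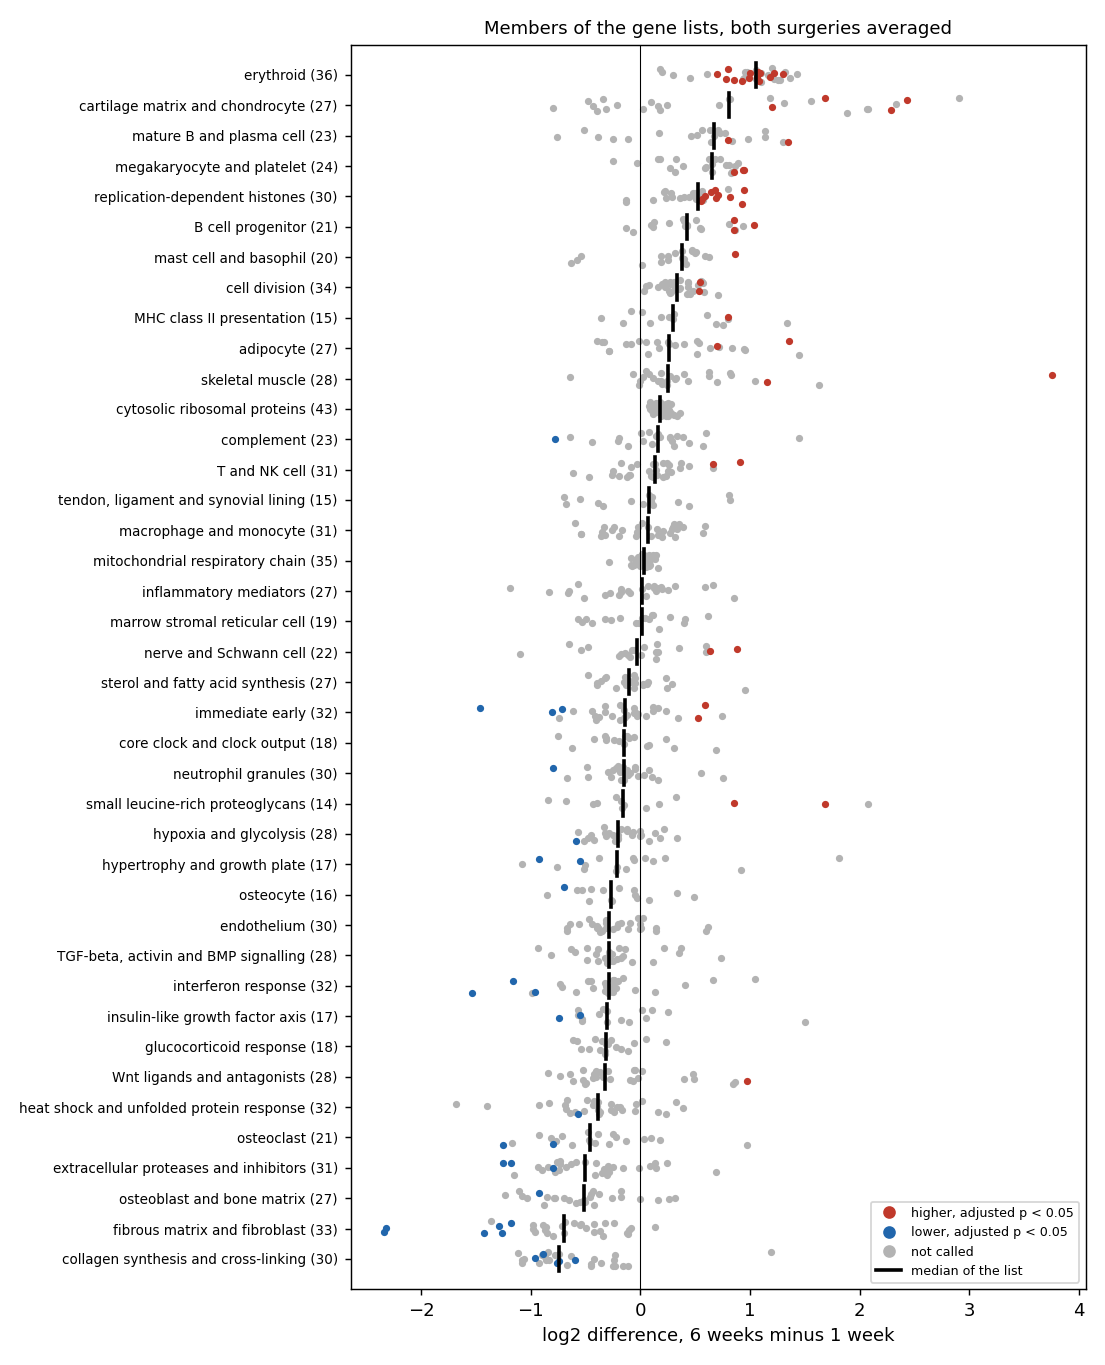
Log2 difference (6 weeks minus 1 week, horizontal axis) of every measured member of 40 gene lists, with 1 dot per gene (red called higher, blue called lower, grey not called) and a bar at each list's median. The erythroid list has the highest median (1.06) and the list of collagen-synthesis enzymes the lowest (-0.74), against 0.04 over all genes.

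The erythroid genes had the largest median difference of the 40 lists described here. All 36 measured members had a positive difference, with a median of 1.06, and 14 passed the test, a share of 38.9% against 2.05% of all genes called higher. Alas2, the erythroid enzyme that commits the cell to haem synthesis, had levels of 3.88, 5.13 and 5.94 at 1 week and 5.60, 6.36 and 6.73 at 6 weeks. It rose by 1.30 ± 0.25 (SE, adjusted p = 0.0153), and the groups overlapped only in the range from 5.60 to 5.94. Fech, which inserts iron in the last step of the pathway, had 3.70, 4.76 and 5.55 against 5.22, 5.92 and 6.29 and rose by 1.18 ± 0.21 (adjusted p = 0.0127). The haem synthesis enzymes Ppox (0.80) and Cpox (0.78) also rose, while Urod (0.93, adjusted p = 0.109) did not pass.

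Some of the transcription factors and membrane proteins of the red cell lineage were called as well. Tal1, a transcription factor required for blood formation, had levels of 2.30, 2.98 and 3.74 at 1 week and 3.76, 3.86 and 4.30 at 6 weeks, rose by 0.93 ± 0.18 (adjusted p = 0.0159), and no array of one time reached the range of the other. Gata1, the master regulator of red cells and megakaryocytes, had 1.86, 2.99 and 3.79 against 3.44, 4.03 and 4.19 and rose by 1.00 ± 0.21 (adjusted p = 0.0219). Tspo2, an erythroid membrane protein, had 3.71, 4.24 and 4.90 against 5.03, 5.33 and 5.70, again with no overlap, and rose by 1.08 ± 0.17 (adjusted p = 0.00973). Ank1, which ties the red cell membrane to its skeleton, had 0.34, 1.49 and 2.30 against 1.86, 2.59 and 2.85, and rose by 1.09 ± 0.22 (adjusted p = 0.0179). The low 6-week value of 1.86 was sham replicate 2, and the other 7 arrays of that time lay between 2.52 and 2.85. The anion exchanger Slc4a1 (1.08), the erythropoietin receptor Epor (1.07), the cytoskeletal Add2 (1.22), the mitochondrial iron importer Slc25a37 (0.99), the water channel Aqp1 (0.85) and the transferrin receptor Tfrc (0.70) also rose. The erythroid factor Klf1 (1.05), the blood group proteins Kel (1.10), Rhag (0.95), Rhd (1.17) and Ermap (0.30) and the membrane skeleton proteins Epb42 (1.22) and Sptb (1.05) did not pass. The globins were not called: Hba-a1 had a difference of 0.18 ± 0.18 (adjusted p = 0.663), at levels from 9.03 to 9.74 against 9.13 to 10.43, and Hbb-b1 had 1.43 (adjusted p = 0.0664), the highest value of the list. Summed on the linear scale, relative to the 75th percentile, the 36 genes came to 1870, 2390 and 3170 at 1 week and 2960, 3560 and 4240 at 6 weeks. The number of erythroid calls ranged from 5, without any one of 5 arrays (1-week sham replicates 2 and 4, 1-week DMM replicate 4, 6-week DMM replicate 1 and 6-week sham replicate 1), to 31 without 6-week sham replicate 2, and the median stayed between 0.881 and 1.18. Within slides the median was 1.36 on slide 1 and 0.741 on slide 2.

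GATA1 binds the letters AGATAA or TGATAA on either strand. The 250 bases before the start of 2 of these genes are shown because both hold that word once and both genes rose. It is in capitals and reads on the opposite strand as TTATCT. Tal1 has a second promoter entry, chr4:115057561-115057810, which does not hold the word. They are from RefSeq on GRCm38.p6, chrX:150547167-150547416 (plus strand) for Alas2 and chr4:115056176-115056425 (plus strand) for Tal1.
Alas2: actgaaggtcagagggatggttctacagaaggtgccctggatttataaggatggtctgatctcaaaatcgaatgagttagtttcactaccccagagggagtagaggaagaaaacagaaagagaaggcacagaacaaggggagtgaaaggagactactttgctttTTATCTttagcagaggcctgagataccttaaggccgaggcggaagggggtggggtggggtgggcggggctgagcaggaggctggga
Tal1: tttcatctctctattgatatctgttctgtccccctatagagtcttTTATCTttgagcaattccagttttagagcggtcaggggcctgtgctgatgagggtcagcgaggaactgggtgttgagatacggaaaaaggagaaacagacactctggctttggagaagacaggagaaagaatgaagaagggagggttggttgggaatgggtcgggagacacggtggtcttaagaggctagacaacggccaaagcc
Among all 32851 promoters in the same table, 5452 (16.6%) held AGATAA or TGATAA in these 250 bases. Of the 36 measured erythroid genes 24 had an entry, with 26 promoters, and 13 of those promoters held the word. Among the called genes with an entry, those of Cpox and Epor held it as well. The entries of Add2, Aqp1, Gata1, Ppox, Tfrc and Tspo2, also called, did not. A match describes the letters and is not evidence of binding.

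**Figure D2:**
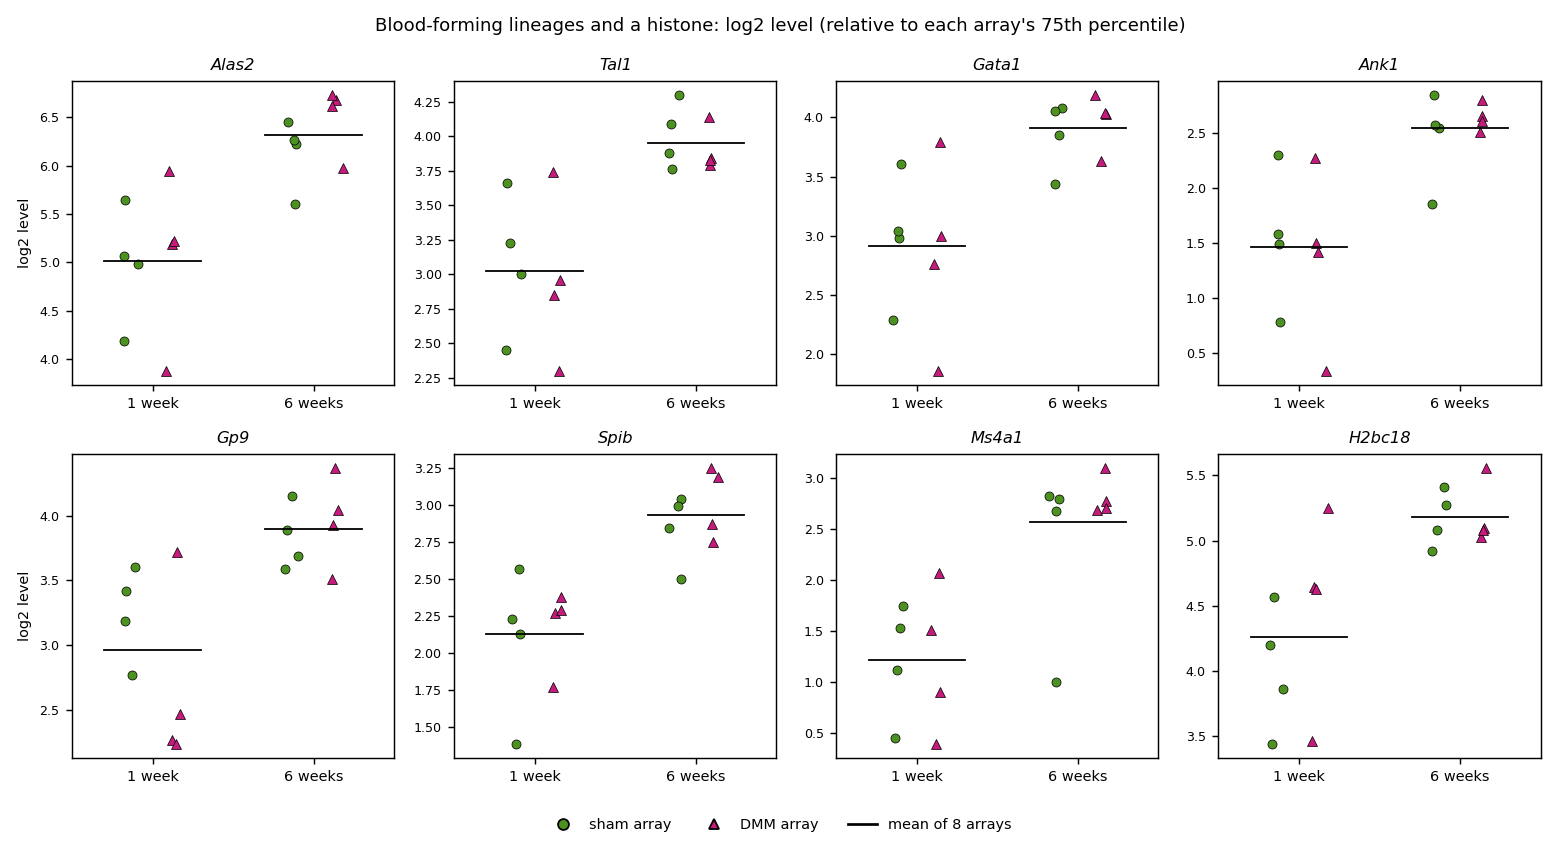
Log2 level (vertical axis, relative to each array's 75th percentile) of 8 genes, from blood-forming lineages plus the histone H2bc18, on each of 16 arrays. Circles are sham, triangles are DMM and a line marks the mean of 8 arrays. Tal1 does not overlap between times, and the lowest 6-week values of Ank1 and Ms4a1 belong to 1 sham array.

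Platelet and megakaryocyte genes had positive differences as well. Of 24 measured, 22 had a positive difference with a median of 0.65, and 3 were called (12.5%, against 2.05% of all genes called higher). Gp9, a subunit of the platelet receptor for von Willebrand factor, had levels of 2.24, 2.98 and 3.73 at 1 week and 3.51, 3.91 and 4.37 at 6 weeks and rose by 0.93 ± 0.23 (adjusted p = 0.0389). Its partner Gp5 had -1.55, -0.60 and 0.37 against -0.11, 0.43 and 0.66 and rose by 0.94 ± 0.23 (adjusted p = 0.0431). Treml1, a receptor of platelet granules, had 2.66, 3.62 and 4.26 against 4.04, 4.39 and 4.67 and rose by 0.86 ± 0.21 (adjusted p = 0.0416). The ranges of the 2 times overlapped for all 3. Between 3 and 10 platelet genes passed without 1-week sham replicate 3, 1-week DMM replicate 3, 6-week sham replicates 2 or 3 or 6-week DMM replicate 3, with 10 without 6-week sham replicate 2, and none passed without any one of the other 11 arrays. The list's median was 1.04 on slide 1 and 0.28 on slide 2.

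B cells are made in the marrow, and genes of early and late stages had mostly positive differences. Of 21 measured genes of B-cell progenitors 19 had a positive difference (median 0.42), and 3 were called (14.3%, against 2.05% of all genes called higher). Cd79a, a signalling chain of the B-cell receptor, had levels of -1.43, -0.47 and 0.14 at 1 week and -0.0016, 0.28 and 0.82 at 6 weeks and rose by 0.85 ± 0.21 (adjusted p = 0.0387) and the transcription factor Bach2 by 0.86 ± 0.20 (adjusted p = 0.0339). Of 23 genes of mature B and plasma cells 18 had a positive difference (median 0.68), and 2 were called (8.7%, against 2.05% of all genes called higher). Ms4a1, which encodes CD20, had 0.39, 1.31 and 2.07 at 1 week and 1.00, 2.73 and 3.10 at 6 weeks and rose by 1.35 ± 0.29 (adjusted p = 0.0242). Its 6-week minimum of 1.00 was sham replicate 2, and the other 7 arrays of that time lay between 2.67 and 3.10. Spib, a transcription factor of B cells, had 1.39, 2.25 and 2.57 against 2.50, 2.93 and 3.25 and rose by 0.80 ± 0.17 (adjusted p = 0.0207). Among 15 genes of MHC class II presentation, H2-Ob, a B-cell modulator of peptide loading, rose by 0.80 ± 0.18 (adjusted p = 0.0284). It was the called member of that list (6.67%, against 2.05% of all genes called higher).

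Calls in the mature B list ranged from 1 to 16 and in the progenitor list from 0 to 6 when single arrays were left out. The progenitor list had no call without 6-week DMM replicate 2 or 6-week sham replicate 1. The mature list had 16 without 6-week sham replicate 2, when 1509 of all 28249 genes were called higher. Other white cells gave at most 2 calls per list. Called higher were 6.45% of T and NK genes and 5% of mast cell and basophil genes, against 2.05% of all genes. Of the neutrophil genes 3.33% were called lower, against 0.956% of all genes. Of 31 T and NK genes, the adhesion molecule Cd2 (0.91 ± 0.22, adjusted p = 0.0374) and the T-cell adaptor Lat (0.66 ± 0.16, adjusted p = 0.0405) rose, and the list's median was 0.13. Of 20 genes of mast cells and basophils, the interleukin-33 receptor Il1rl1 rose by 0.86 ± 0.19 (adjusted p = 0.0238). None of 31 macrophage and monocyte genes passed (median 0.07, 5 at an unadjusted p under 0.05 in limma). Of 30 neutrophil genes only Mmp9 was called, and the primary granule protein Mpo had a difference of -0.16 ± 0.16 at levels from 7.13 to 8.32 over all arrays.

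Genes of dividing cells had smaller positive differences. Replication-dependent histones, which are made only while DNA is copied, had a positive difference in 28 of 30 measured members with a median of 0.52, and 10 were called (33.3%, against 2.05% of all genes called higher). H1f2, a linker histone, had levels of 2.48, 3.28 and 4.49 at 1 week and 3.73, 4.24 and 4.74 at 6 weeks and rose by 0.95 ± 0.19 (adjusted p = 0.0162). H2bc18, a core histone, had 3.44, 4.38 and 5.25 against 4.92, 5.09 and 5.56 and rose by 0.93 ± 0.20 (adjusted p = 0.0231). A second probe for each gave a smaller difference (0.32 and 0.36). H2ac6, H2bc7, H2bc15, H1f1, H4c3, H3c3, H2bc14 and H2bc3 rose by between 0.56 and 0.82. Histone genes are near-identical copies of one another, and a probe may read several of them. All 34 cell-division genes had a positive difference (median 0.34), and 2 were called (5.88%, against 2.05% of all genes called higher). These were Cdc6, which loads the replicative helicase (0.55 ± 0.12, adjusted p = 0.0269), and Birc5, a subunit of the chromosomal passenger complex (0.54 ± 0.13, adjusted p = 0.0370). All 43 cytosolic ribosomal protein genes had a positive difference as well, with a median of 0.18 and no call (6 at an unadjusted p under 0.05 in limma), but that median turned to -0.00788 (19 of 43 members positive) under quantile normalization. Without 1-week DMM replicate 4 or 1-week sham replicate 4 only 1 histone was called, and without 6-week sham replicate 2 the counts were 18 histones and 21 cell-division genes.

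Fibrous matrix genes had mostly negative differences. Of 33 measured, 32 had a negative difference with a median of -0.70, and 6 were called (18.2%, against 0.956% of all genes called lower). Col3a1, the collagen of loose and healing connective tissue, had levels of -0.50, 1.32 and 3.83 at 1 week and -2.52, -0.89 and 1.15 at 6 weeks. It fell by 2.34 ± 0.53 (adjusted p = 0.0288), its other probes gave smaller differences, to -0.74, and the groups overlapped between -0.50 and 1.15. With the mean of its probes the difference was -1.40 and not called (adjusted p = 0.114). Col6a1, a subunit of the beaded filaments around cells, had 2.50, 3.31 and 4.42 against 1.39, 1.97 and 2.88 and fell by 1.29 ± 0.26 (adjusted p = 0.0194). Its partner Col6a2 fell by 1.26 ± 0.28 (adjusted p = 0.0265). Col12a1, which sits on the surface of collagen fibrils, had 0.36, 0.89 and 2.13 against -1.18, -0.51 and 0.63 and fell by 1.43 ± 0.32 (adjusted p = 0.0275). The short-chain collagen Col8a1 fell by 1.18 ± 0.27 (adjusted p = 0.0320). Tnn, the tenascin of periosteum and bone surfaces, had -5.18, -4.31 and -1.15 against -7.36, -6.83 and -3.94, a difference of -2.32 ± 0.48 (adjusted p = 0.0211), but it was above background on 6 and 1 of 8 arrays and the difference was -0.54 and no longer called with normexp background correction. The summed level of the list was 222, 292 and 443 at 1 week and 186, 201 and 257 at 6 weeks. The list's median was -1.10 on slide 1 and -0.304 on slide 2.

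The enzymes that fold, modify and cross-link collagen had negative differences too. Of 30 measured, 29 had a negative difference with a median of -0.74, and 5 were called (16.7%, against 0.956% of all genes called lower). Plod1, a lysyl hydroxylase that prepares collagen for cross-linking, had levels of -0.66, -0.38 and 0.30 at 1 week and -1.54, -0.95 and -0.74 at 6 weeks, without overlap, and fell by 0.74 ± 0.16 (adjusted p = 0.0231). Plod3, a second enzyme of that family, fell by 0.59 ± 0.13 (adjusted p = 0.0269), and Loxl3, a lysyl oxidase, by 0.88 ± 0.20 (adjusted p = 0.0267). Pcolce, which speeds removal of the procollagen tail, had 4.25, 5.22 and 6.21 against 3.69, 4.29 and 4.81 and fell by 0.96 ± 0.23 (adjusted p = 0.0397). Crtap, part of the prolyl 3-hydroxylation complex, fell by 0.76 ± 0.19 (adjusted p = 0.0445). Pcolce2 was the 1 member with a positive difference (1.19, adjusted p = 0.269). No fibrous gene was called without 1-week sham replicate 2, and 13 were without 6-week sham replicate 2. No collagen-synthesis gene was called without 1-week sham replicate 2, 1-week sham replicate 4 or 1-week DMM replicate 4, and 14 were without 6-week sham replicate 2.

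**Figure D3:**
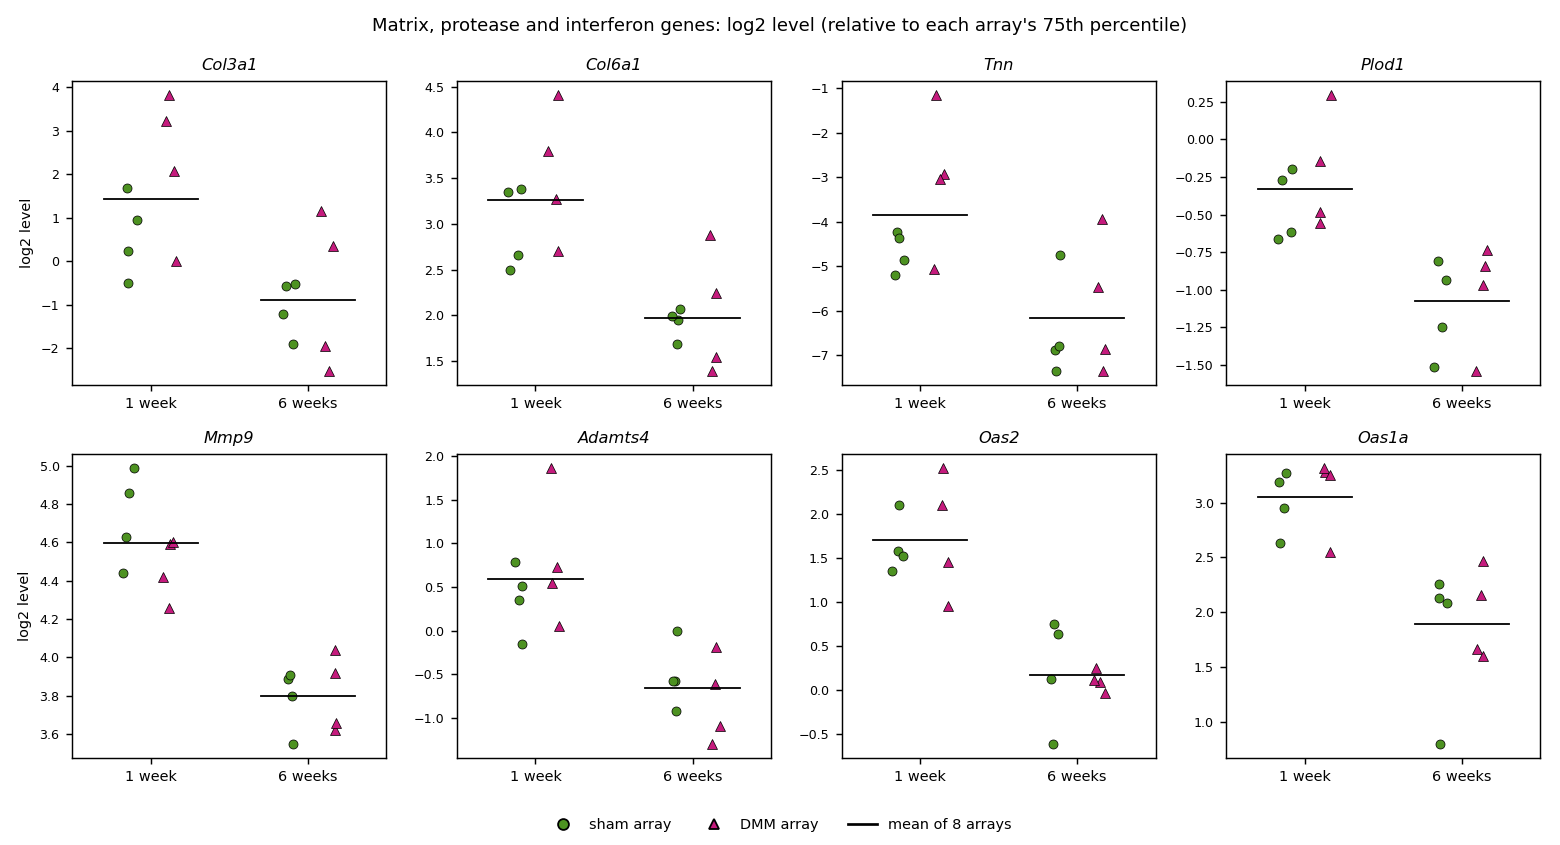
Log2 level (vertical axis, relative to each array's 75th percentile) of 8 matrix, protease and interferon genes on each of the 16 arrays, with circles for sham, triangles for DMM and a line at the mean of 8 arrays. Plod1, Mmp9, Oas2 and Oas1a do not overlap between times, and the highest 1-week values of Col3a1 belong to DMM arrays.

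Genes of the bone cells themselves had mostly negative differences. All calls were lower: 3.7% of the osteoblast list, 6.25% of the osteocyte list and 9.52% of the osteoclast list. Over all genes, 0.956% were called lower. Of 27 osteoblast and bone-matrix genes, 24 had a negative difference with a median of -0.51. Pth1r, the receptor for parathyroid hormone, was called, with levels of 2.93, 3.28 and 3.95 at 1 week and 1.65, 2.40 and 3.27 at 6 weeks and a fall of 0.92 ± 0.23 (adjusted p = 0.0471). Col1a1, the main collagen of bone, had 7.46, 8.34 and 8.96 against 6.61, 7.40 and 8.98 and a difference of -0.65 ± 0.33 (adjusted p = 0.309). Of 16 osteocyte genes 13 had a negative difference (median -0.26). That median was -0.667 on slide 1, -0.0352 on slide 2, -0.0821 after sham and -0.476 after DMM. The cytoskeletal linker Plec was the called member, with 3.14, 3.29 and 3.72 against 2.16, 2.61 and 3.10, no overlap, and a fall of 0.69 ± 0.13 (adjusted p = 0.0152). Sost, the osteocyte inhibitor of bone formation, had -0.31, 0.36 and 1.08 against -0.77, 1.35 and 2.20 and a difference of 0.49 ± 0.37 (adjusted p = 0.552). Of 21 osteoclast genes 17 had a negative difference (median -0.46), and Calcr, the calcitonin receptor, had a difference of -1.25 ± 0.31 (adjusted p = 0.0406) and was called beside Mmp9, but with normexp background correction it was -0.66 and not called (adjusted p = 0.0724). Calls in the osteoblast list ranged from 0 to 10 and in the osteoclast list from 1 to 8 when single arrays were left out, both highest without 6-week sham replicate 2.

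Extracellular proteases and their inhibitors had mostly negative differences. Of 31 measured, 26 had a negative difference (median -0.50) and 3 were called (9.68%, against 0.956% of all genes called lower). Mmp9, the gelatinase of osteoclasts and neutrophils, had levels of 4.26, 4.60 and 4.99 at 1 week and 3.55, 3.85 and 4.04 at 6 weeks. The ranges did not overlap and the gene fell by 0.80 ± 0.12 (adjusted p = 0.00905). Timp1, an inhibitor of metalloproteinases, had 3.20, 3.78 and 4.30 against 1.70, 2.73 and 3.40 and fell by 1.18 ± 0.22 (adjusted p = 0.0129). Adamts4, an enzyme that cuts aggrecan, had -0.16, 0.53 and 1.87 against -1.30, -0.60 and -0.01 and fell by 1.25 ± 0.26 (adjusted p = 0.0209). The 1-week maximum of Adamts4 was DMM replicate 1, and the other 7 arrays of that time ended at 0.79. The collagenase Mmp13 had a difference of -0.76 ± 0.32 (adjusted p = 0.213). On a panel of 23 measured genes commonly followed in joint disease, Adamts4 was the called member. That was 4.35% of the panel, against 0.956% of all genes called lower and 3.01% called in either direction.

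Genes of cartilage had mostly positive differences, unlike the other matrix lists. Of 27 measured, 20 had a positive difference with a median of 0.80, and 4 were called (14.8%, against 2.05% of all genes called higher). Cnmd, which encodes chondromodulin and keeps cartilage free of vessels, had levels of -4.37, -2.79 and -1.22 at 1 week and -3.54, -0.39 and 1.43 at 6 weeks and rose by 2.29 ± 0.50 (adjusted p = 0.0259). The 6-week minimum was DMM replicate 2, and the other 7 arrays of that time lay between -0.88 and 1.43. Chad, a leucine-rich protein that binds chondrocytes, had -2.13, -1.33 and -0.03 against -1.12, 0.33 and 1.65 and rose by 1.68 ± 0.36 (adjusted p = 0.0232). Sox6, a transcription factor of chondrocytes that is also active in red cell precursors, had 0.39, 1.62 and 2.27 against 2.29, 2.72 and 3.51, without overlap, and rose by 1.20 ± 0.25 (adjusted p = 0.0219). Matn3, a linker of matrix filaments, had -7.42, -5.95 and -3.58 against -6.62, -2.99 and -0.92 and a difference of 2.43 ± 0.61 (adjusted p = 0.0445). It was above background on 3 arrays at 1 week and 7 at 6 weeks, and with normexp background correction the difference was 0.85 and not called. Of 14 small leucine-rich proteoglycans, a separate list, 8 had a negative difference (median -0.16). Chad and Prelp were called (14.3%, against 2.05% of all genes called higher). Prelp, which anchors basement membranes to collagen, rose by 0.85 ± 0.17 (adjusted p = 0.0164).

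The defining matrix genes of cartilage did not pass. Col2a1, its main collagen, had a difference of 0.16 (adjusted p = 0.872), Acan, its main proteoglycan, 0.80 (adjusted p = 0.521), and Prg4, the joint lubricant, 0.02. The difference in Cytl1, a cytokine-like product of chondrocytes, was 2.91 (adjusted p = 0.0657). No gene of the list was called without 1-week DMM replicate 4, 6-week DMM replicate 1, 1-week sham replicate 2 or 6-week sham replicate 1. Cartilage was dissected from the same sections in this study, and how much of it entered each bone sample was not tested. Among 17 genes of the hypertrophic growth plate, 2 were called lower (11.8%, against 0.956% of all genes), Pth1r, described above, and Runx3. Runx3, a transcription factor of late chondrocytes, had a fall of 0.55 ± 0.14 (adjusted p = 0.0445), but its other probe gave 0.06. Col10a1 had a difference of 1.82 (adjusted p = 0.277).

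Of 6 measured members of the interferon-induced Oas family on the interferon list, 3 were called lower. These enzymes sense double-stranded RNA and, directly or through RNase L, hold back viruses. Oas2 had levels of 0.96, 1.55 and 2.53 at 1 week and -0.61, 0.12 and 0.75 at 6 weeks. It fell by 1.54 ± 0.23 (adjusted p = 0.00905), with no overlap. Oas1a had 2.55, 3.22 and 3.32 against 0.80, 2.11 and 2.47, again without overlap, and fell by 1.16 ± 0.22 (adjusted p = 0.0127). Oasl2, an Oas-like protein, had 0.47, 1.14 and 1.54 against -0.59, 0.23 and 0.64 and fell by 0.97 ± 0.17 (adjusted p = 0.0127). These 3 were the called members of 32 measured interferon-response genes, of which 28 had a negative difference (median -0.29), a share of 9.38% against 0.956% of all genes called lower, and all 3 stayed called without any single array. The other family members Oas1g (-0.23), Oas3 (-0.32) and Oasl1 (-0.25) did not pass. Nor did other interferon genes: Isg15, a ubiquitin-like modifier, had a difference of 0.41 (adjusted p = 0.366) and Rsad2, the antiviral protein viperin, 0.66 (adjusted p = 0.339).

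Interferon-activated factors bind GAAA followed, after 2 bases of any kind, by GAAA again. The 250 bases before Oas1a (RefSeq, GRCm38.p6, chr5:120907526-120907775, minus strand) are shown because they hold 2 overlapping copies of that word, in capitals, close to the start of a gene that fell.
Oas1a: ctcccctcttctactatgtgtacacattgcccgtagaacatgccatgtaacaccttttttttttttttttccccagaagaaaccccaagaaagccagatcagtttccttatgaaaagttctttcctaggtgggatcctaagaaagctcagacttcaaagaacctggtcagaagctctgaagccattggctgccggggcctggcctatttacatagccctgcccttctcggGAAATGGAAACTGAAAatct
On either strand, 978 of 32851 promoters (2.98%) held the word in this window. Of the 32 measured interferon genes 24 had an entry, with 30 promoters, and 13 of those promoters held it. The promoter of Oasl2 had no match. Genes that were not called held the word as well, among them Bst2, Ifit1 and Oas1g with 2 copies each. Isg15 held 3 copies and Rsad2 held 1, and both had a positive difference. A link between the word and the differences was not tested.

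Immediate early genes, which are switched on within minutes of a stimulus or of tissue handling, went both ways. Of 32 measured, 3 were called lower and 2 higher, with a median of -0.14. Called in either direction were 15.6% of the list, against 3.01% of all genes. Nr4a2, an orphan nuclear receptor, had levels of -1.38, -0.21 and 0.54 at 1 week and -2.40, -1.82 and -1.34 at 6 weeks and fell by 1.47 ± 0.27 (adjusted p = 0.0127). Klf4, a transcription factor of endothelium and monocytes, had 3.46, 3.97 and 4.55 against 2.71, 3.15 and 3.48 and fell by 0.81 ± 0.16 (adjusted p = 0.0168). Fosl2, an AP-1 subunit with a role in bone cells, had 2.47, 2.75 and 3.30 against 1.80, 1.98 and 2.72 and fell by 0.71 ± 0.14 (adjusted p = 0.0161). Btg2, a brake on proliferation, rose by 0.53 ± 0.13 (adjusted p = 0.0429) and the phosphatase Dusp2 by 0.59 ± 0.15 (adjusted p = 0.0493). The classic member Fos had a difference of -0.74 (adjusted p = 0.101) and Egr1 one of 0.35 (adjusted p = 0.582).

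The lists of stress, hormone response, the clock, inflammation and respiration gave at most 1 call each. Called lower were 3.12% of heat shock and unfolded protein response genes and 3.57% of hypoxia and glycolysis genes, against 0.956% of all genes. Of 32 genes of the heat shock and unfolded protein response 27 had a negative difference (median -0.38, 19 at an unadjusted p under 0.05 in limma), and Pdia4, a folding enzyme of the endoplasmic reticulum, fell by 0.57 ± 0.14 (adjusted p = 0.0395). None of 18 glucocorticoid-response genes passed (16 negative, median -0.32, 7 at an unadjusted p under 0.05 in limma), with Fkbp5 at -0.41 ± 0.13 (adjusted p = 0.0891) and Tsc22d3 at -0.37 ± 0.12 (adjusted p = 0.0925). None of 18 clock genes passed (6 at an unadjusted p under 0.05), with Dbp at -0.06 ± 0.17 and Nr1d1 at -0.10 ± 0.20. Hk2, a hexokinase, was the called gene of 28 in hypoxia and glycolysis and fell by 0.59 ± 0.14 (adjusted p = 0.0362). None of 27 inflammatory mediators passed (6 at an unadjusted p under 0.05), and interleukin-6 (Il6) had levels from -6.99 to -4.47 at 1 week and from -5.14 to -3.65 at 6 weeks. None of 35 respiratory-chain genes passed (1 at an unadjusted p under 0.05), with a median of 0.03.

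The Serpina1 genes were among the largest rises of genes with a current symbol. In the mouse this cluster encodes several near-identical copies of alpha-1-antitrypsin, a liver-made inhibitor of neutrophil elastase. All 5 measured copies rose. Serpina1a had levels of -3.81, -2.17 and 0.36 at 1 week and -1.24, 1.99 and 2.42 at 6 weeks, a rise of 3.58 ± 0.55 (adjusted p = 0.00940). Serpina1c had -3.48, -1.36 and 0.24 against -1.22, 1.93 and 2.34, a rise of 3.27 ± 0.55 (adjusted p = 0.0113). In both, the low 6-week array was DMM replicate 2, and without it the rises were 3.90 and 3.62. Serpina1d had -6.65, -4.58 and -2.56 against -4.07, -0.87 and -0.45, a rise of 3.44 ± 0.56 (adjusted p = 0.0111), and was above background on 4 arrays at 1 week and 8 at 6 weeks. With normexp background correction its rise was 1.84 and still called. Serpina1b behaved differently by array: it had -0.21, 0.39 and 1.18 at 1 week and 1.51, 1.70 and 3.57 at 6 weeks without overlap, a rise of 1.81 ± 0.25 (adjusted p = 0.00596), and DMM replicate 2 was its highest array. Serpina1e had -1.53, -0.61 and 0.39 against -0.15, 0.89 and 1.72, a rise of 1.32 ± 0.16 (adjusted p = 0.00521), while its other probe gave 3.73.

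Because the copies are so alike, the probes matter. Per the array's annotation on mm9 they lie on the minus strand at chr12:105091819-105091878 (Serpina1a), chr12:104966520-104966579 (Serpina1b), chr12:105133165-105133224 (Serpina1c), chr12:105002930-105002989 (Serpina1d) and chr12:105185280-105185339 (Serpina1e). The probes for Serpina1a and Serpina1c share an unbroken stretch of 47 of their 60 bases, so that their values are not independent, while every other pair shares at most 16 bases in a row. Both sequences below are shown in lower case with no part marked, the first being the start of the shared stretch and the second the whole probe annotated to Serpina1d. Which copies each probe can bind was not tested.
Serpina1a and Serpina1c, shared stretch, first 30 bases: atgtcatccttccttctgaattgggttcct
Serpina1d: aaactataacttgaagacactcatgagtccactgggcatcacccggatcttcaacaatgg

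A list of liver-enriched genes, chosen after these values were seen, had 17 measured members. Of these, 8 were called, all higher: the 5 Serpina1 copies, Mst1, Urah and Cyp2e1. That was 47.1%, against 2.05% of all genes called higher, in a list picked with the values known. Mst1, which encodes a growth factor-like plasma protein, had -2.27, -1.45 and -0.97 at 1 week and -0.83, -0.57 and -0.05 at 6 weeks, without overlap, and rose by 1.01 ± 0.15 (adjusted p = 0.00773). Urah, an enzyme of urate breakdown, rose by 1.11 ± 0.16 (adjusted p = 0.00731), although its other probe gave 0.35, and the cytochrome Cyp2e1 rose by 0.79 ± 0.20 (adjusted p = 0.0433). Alb, which encodes albumin and is among the most abundant liver transcripts, did not pass, with levels of -5.79, -4.89 and -4.08 against -6.40, -4.73 and -1.76 and a difference of 0.65 ± 0.54 (adjusted p = 0.594). Ahsg (0.85, adjusted p = 0.320) and the fibrinogen gene Fgb (0.38) did not pass either.

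**Figure D4:**
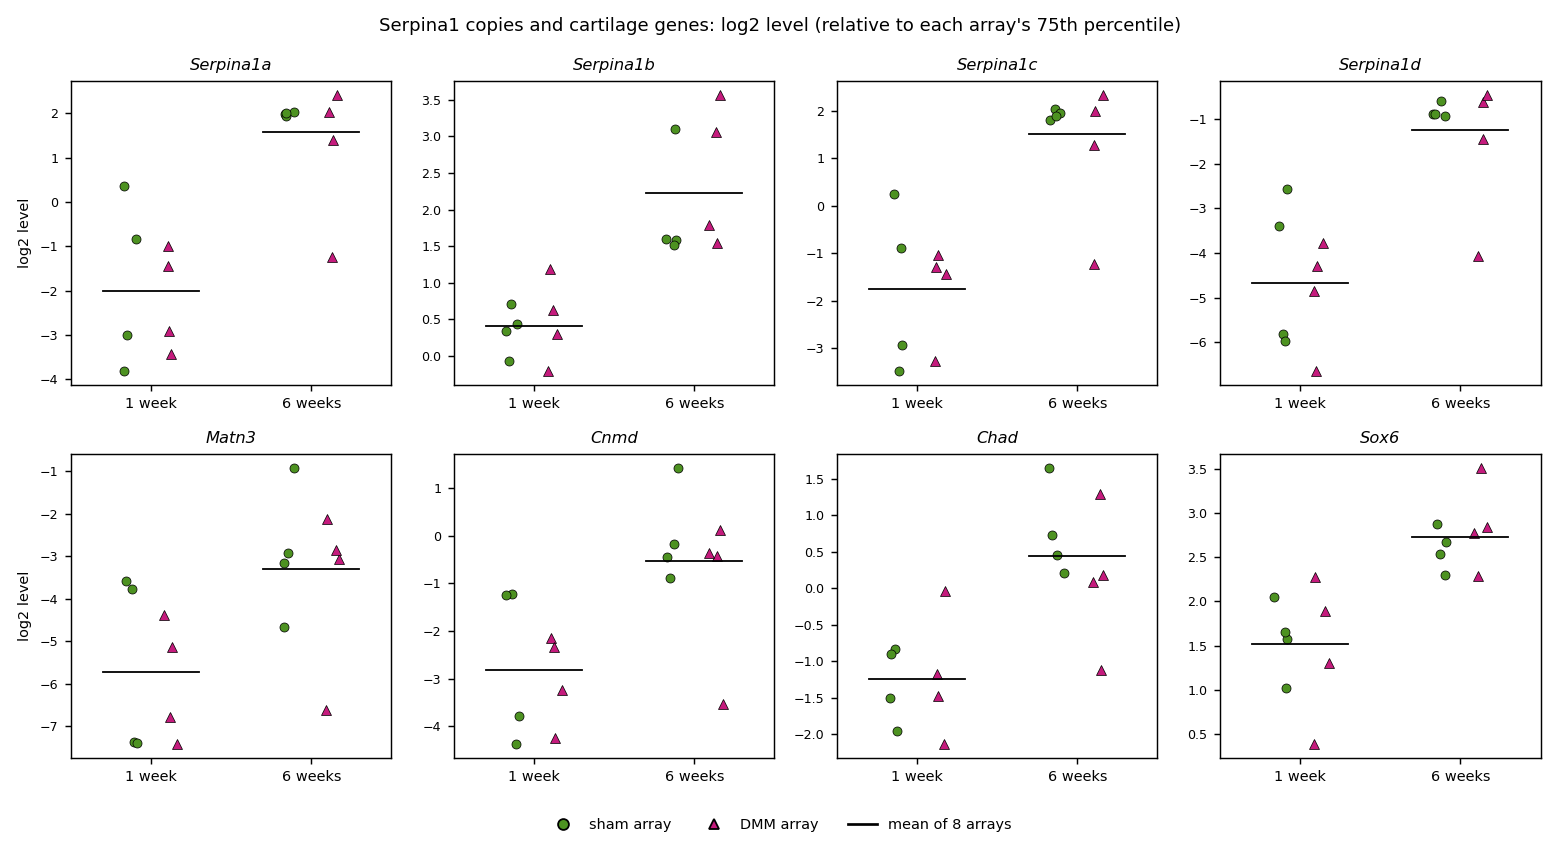
Log2 level (vertical axis, relative to each array's 75th percentile) of 4 Serpina1 copies and 4 cartilage genes on each of the 16 arrays, with circles for sham, triangles for DMM and a line at the mean of 8 arrays. One 6-week DMM array is lowest of its time for Serpina1a, Serpina1c, Serpina1d and Cnmd and highest for Serpina1b.

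Skeletal muscle genes were dim and mostly higher, in 24 of 28 measured members (median 0.26). Over all genes 55.6% had a positive difference, and 379 of 497 olfactory receptors, also dim, did. Myh4, the myosin of fast fibres, was not well above background on any 1-week array (levels from -8.24 to -6.88) and was above it on 4 of 8 arrays at 6 weeks, where levels ran from -6.87 to 1.14. On the processed signal it was at least 3.59-fold higher at 6 weeks. For that fold, each 1-week array was set at the higher of its lowest signal well above background and the probe's own. The limma fit did not use that rule and gave adjusted p = 0.0492. With normexp background correction the log2 difference of Myh4 was 1.52, which is a smaller fold, and it was not called. Its highest values, 1.14 and 0.09, were those of sham replicate 3 and DMM replicate 3. Mylpf, a light chain of fast fibres, had -2.22, -1.47 and -0.70 against -1.69, -0.25 and 0.08 and rose by 1.16 ± 0.21 (adjusted p = 0.0127). The summed level of the 28 muscle genes was 12.5, 15.2 and 19.7 at 1 week and 15.1, 19.3 and 27.3 at 6 weeks, and the part of muscle RNA in other differences was not tested.

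Adipocyte genes had a median of 0.26, with 19 of 27 positive. Of them 2 were called (7.41%, against 2.05% of all genes called higher), and neither is particular to fat. Slc2a4, the insulin-regulated glucose transporter of fat and muscle, had levels of -0.73, 0.36 and 1.14 at 1 week and 1.42, 1.72 and 2.20 at 6 weeks, without overlap, and rose by 1.36 ± 0.21 (adjusted p = 0.0106). Tmem120b, a membrane protein linked to fat cell formation, had 0.45, 0.83 and 1.27 against 1.29, 1.65 and 1.77, also without overlap, and rose by 0.70 ± 0.13 (adjusted p = 0.0127). The defining fat hormone Adipoq had a difference of 0.17 ± 0.33 (adjusted p = 0.833), and the list's median was -0.079 after DMM and 0.357 after sham. Of 22 genes of nerve and Schwann cells 11 had a positive and 11 a negative difference (median -0.03). Artn, a neurotrophic ligand, rose by 0.89 ± 0.16 (adjusted p = 0.0127) and Sox10, the transcription factor of glia, by 0.64 ± 0.12 (adjusted p = 0.0158). Both were dim, with medians of -2.26 against -1.43 for Artn and -2.02 against -1.23 for Sox10.

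The growth factor, endothelial and complement lists gave at most 2 calls each. Called lower were 11.8% of the insulin-like growth factor list and 4.35% of the complement list, against 0.956% of all genes. Called higher were 3.57% of the Wnt list, against 2.05% of all genes. Of 28 Wnt ligands and antagonists 21 had a negative difference, and the median was -0.318 (0.0265 after sham alone). Wnt10a, a ligand with a known role in bone and skin appendages, was the called member and rose by 0.97 ± 0.20 (adjusted p = 0.0177) from a median of -3.70 to one of -2.58. The antagonists Dkk1 (-0.05 ± 0.31) and Sfrp1 (-0.52 ± 0.20) did not pass. Of 17 genes of the insulin-like growth factor axis, the binding protein Igfbp2 fell by 0.74 ± 0.18 (adjusted p = 0.0365), with -2.70, -2.47 and -1.65 against -3.61, -3.08 and -2.75 and no overlap, but with normexp background correction the difference was -0.42 and not called (adjusted p = 0.127). The clearance receptor Igf2r fell by 0.55 ± 0.12 (adjusted p = 0.0248). None of 28 genes of TGF-beta, activin and BMP signalling passed (median -0.28, 8 at an unadjusted p under 0.05 in limma). None of 30 endothelial genes did either (median -0.28, 9 at an unadjusted p under 0.05 in limma). On slides 1 and 2 the medians were -0.449 and -0.0372 for the first list and -0.521 and -0.0174 for the second. Of 23 complement genes 17 had a positive difference (median 0.16). Itgam, the alpha chain of complement receptor 3, was the called member and fell by 0.78 ± 0.20 (adjusted p = 0.0493), with -0.30 on its other probe.

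Several of the largest differences lay in dim genes and depended on how background was removed. Among higher genes outside the lists, Unc93a2 had 0.11, 1.65 and 3.14 at 1 week against 1.73, 4.39 and 5.69 at 6 weeks, a rise of 2.43 ± 0.52 (adjusted p = 0.0232), and the amino acid transporter Slc6a20a rose by 1.71 ± 0.34 (adjusted p = 0.0169). The milk casein gene Csn1s2b rose by 1.99 ± 0.47 (adjusted p = 0.0334), but a second probe gave 0.16, and the prolactin relative Prl2a1 rose by 1.84 ± 0.45 (adjusted p = 0.0384). Gm16618 was above background on none of 8 arrays at 1 week and 4 of 8 at 6 weeks. On the processed signal it was at least 1.58-fold higher by the rule used for Myh4. The limma fit did not use that rule and gave adjusted p = 0.0420. Among lower genes, the anchoring protein Akap6 fell by 1.73 ± 0.42 (adjusted p = 0.0396) and the surface protein Msln by 1.55 ± 0.40 (adjusted p = 0.05, under the threshold before rounding). Prdm8 (-1.53), 4930487H11Rik (-1.52), Lrch2 (-1.40) and Hapln4 (-1.30) were called but above background on at most 3 arrays at 6 weeks. With normexp background correction, Myh4, Gm16618, Akap6, Msln, Prdm8, 4930487H11Rik, Lrch2 and Hapln4 were no longer called, with differences of 1.52, 0.57, -1.06, -0.91, -0.19, -0.10, -0.21 and -0.32 in that order. Csn1s2b (1.20), Prl2a1 (1.05), Urah (0.67), Wnt10a (0.60), Loxl3 (-0.57) and H2ac6 (0.45) stayed called with differences more than 1.5 times smaller. Olfactory receptors, which bone is not known to use, gave 12 higher and no lower calls among 497 measured, at a median level of -3.89. Higher calls were 2.41% of them, against 2.05% of all genes. Of the 497, 379 had a positive difference (median 0.143), against 55.6% of all genes (median 0.04). Whether such a lean affects the direction counts of other dim genes was not tested.

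The time difference was computed after each surgery separately, side by side. The 6-week sham arrays included replicate 2, whose erythroid mean level was 3.08 against 4.07 to 4.66 on the other 6-week arrays. How far that array moved the medians after sham was not tested. The erythroid list had a median of 0.79 after sham and 1.30 after DMM, the platelet list 0.323 and 1.05, the fibrous list -0.561 and -0.883, the osteoblast list -0.436 and -0.677 and the cartilage list 1.05 and 0.583. Col3a1 had a difference of -1.64 after sham and -3.03 after DMM, Gp9 0.58 and 1.28, and Serpina1a 3.81 and 3.35. With 4 against 4 mice no gene passed in either surgery alone, although 2399 genes after sham and 3085 after DMM had an unadjusted p under 0.05 in limma. The difference of the time effect between DMM and sham was tested for every gene and none passed (274 at an unadjusted p under 0.05 in limma). The smallest of those p-values were those of Gm16299, a predicted gene (-2.16 ± 0.47, DMM minus sham, unadjusted p = 0.000395), and Cyp2f2, a cytochrome of lung and liver, with 3.07 after sham, -0.28 after DMM and a difference of -3.35 ± 0.78 (unadjusted p = 0.00075). Of the 40 lists, 32 had medians of the same sign after both surgeries. In 21 of those 32 the median was larger in size after DMM. On the 2 slides, 30 of the 40 lists had medians of the same sign.

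**Figure D5:**
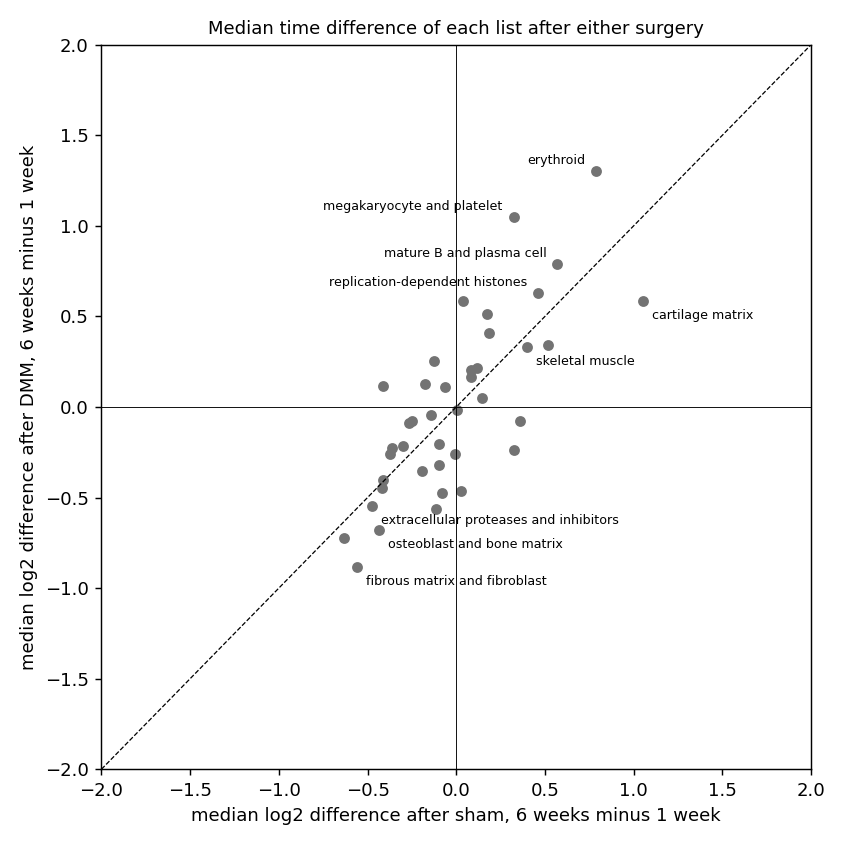
Median log2 difference (6 weeks minus 1 week) of each of 40 gene lists after sham (horizontal axis) against the same after DMM (vertical axis), with 1 point per list and a dashed line where the 2 are equal. The erythroid list lies at 0.79 and 1.30 and the fibrous list at -0.561 and -0.883, and 32 lists have the same sign on both axes.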

How the data were processed

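Total RNA of subchondral bone from 16 mice was hybridised to single-colour Agilent arrays, 1 array per mouse. Per the file headers, Agilent Feature Extraction 10.7.3.1 made the deposited intensity values, and the processed signal is already background-corrected. The submitters' processing notes name limma 3.20.9, and the authors' value table, taken as log2 values of unstated scale and centring, served as an alternative only. No sources used here name a genome build beyond that of the probe positions.

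From the processed signal, log2 was taken and each array's 75th percentile subtracted; 14.3% of spots carried Feature Extraction's surrogate value for signals not above background. Control spots, flagged outlier spots and 342 probes thereby left without a value on some array were dropped, spots of 1 probe were averaged, and probes well above background on fewer than 4 of 16 arrays were dropped, which left 43267 of 56605 probes. Probes were named through RefSeq by accession (32994), current symbol (10224) or older symbol (520), and otherwise kept the file's name (12867). Where a gene had more than 1 probe (9270 genes), its brightest probe by mean level was used. Time, surgery and slide were fitted with lmFit and eBayes (limma 3.58.1, R 4.3.3), with Benjamini-Hochberg adjustment over all 28249 genes at a threshold of 0.05. The difference between surgeries came from a fit with 1 mean per group and slide. The slide was read from the barcode of each array and each slide held 2 arrays of each group. The fit was tested on simulated data with known differences.

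Alternatives were normexp background correction (offset 50), quantile and median scaling, other filters, the authors' table, other uses of slide and surgery, array weights, the mean of a gene's probes, and leaving out each array. The liver list, a time-by-slide term (0 genes called in limma) and the counts for olfactory receptors were chosen after seeing the data. The members of the comparison and all gene lists were chosen with earlier results of these data known, so list counts are descriptions. Named genes were the 12 largest called differences per direction among genes with a current symbol, up to 6 called members per list and direction (the 2 smallest p-values where none was called), the joint panel, the clock genes and the 6 smallest p-values for the difference between surgeries. Other list members are named to complete a group and were chosen after their values were seen. Some genes of the lists are not reported here by name.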

Additional observations from a re-analysis of the deposited data

Results flagged for a closer look

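In groups of 8 arrays of 1 time, 57 of 414 sets of values (13.8%) had an array whose gap to the nearest other array was over 0.526 of the whole range, Dixon's 95% critical value for 8 samples. Chance flags about 1 in 20 such sets, and values of 1 array are not independent of each other. Each value below is the log2 level on the array that lay apart, with the range of the other 7 arrays of its time, and for a gene list it is the mean level of the members. The 6-week sham replicate 2 gave 28 of the 57, and 1-week DMM replicates 1 and 2 gave 10 each.

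On 6-week sham replicate 2, whose score on the first principal component was 176.5 (others -69.67 to 1.70), most of these values were low. The genes that lay below all other 6-week arrays included Hmgcs1 at 1.66 (others 2.06 to 2.32), Mylpf at -1.69 (others -0.52 to 0.08), Ank1 at 1.86 (others 2.52 to 2.85), Ccr2 at 0.45 (others 1.30 to 1.75) and Nfil3 at -0.35 (others 0.75 to 1.39). Also low there were Wnt10a at -3.34 (others -2.79 to -2.31), Ms4a1 at 1.00 (others 2.67 to 3.10), Il1rn at -1.32 (others -0.23 to 0.61), H2-Ob at -0.20 (others 0.43 to 0.72) and Inhba at -2.97 (others -0.18 to 0.76). Low as well were the remaining genes, Tgfb1 at 0.48 (others 0.95 to 1.29), Arntl at -2.37 (others -0.60 to 0.52) and Serpina3k at -6.80 (others -5.33 to -4.40). The genes above all other 6-week arrays were Sdhc at 2.86 (others 2.08 to 2.43), Cry1 at -1.01 (others -2.44 to -1.94), Hlf at -1.46 (others -3.51 to -2.91) and Apoa2 at 6.77 (others 4.43 to 5.39). Lists with a low mean on that array were MHC class II presentation at 1.56 (others 2.06 to 2.41), cell division at 2.09 (others 2.90 to 3.48) and complement at 0.75 (others 1.19 to 1.37). Further low means were those of cytosolic ribosomal proteins at 6.22 (others 6.83 to 7.26), erythroid at 3.08 (others 4.07 to 4.66) and heat shock and unfolded protein response at 1.86 (others 2.34 to 2.76). The others were hypoxia and glycolysis at 2.36 (others 2.62 to 2.73), mature B and plasma cell at -0.25 (others 0.57 to 0.84) and mitochondrial respiratory chain at 3.62 (others 4.26 to 4.70). The list with a high mean there was nerve and Schwann cell at -1.21 (others -2.16 to -1.72).

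On 1-week DMM replicate 1 the genes above all other 1-week arrays were Adamts4 at 1.87 (others -0.16 to 0.79), Klf9 at 0.65 (others -0.04 to 0.29) and Tnfsf11 at -1.23 (others -3.23 to -2.53). A lower value was that of Hlf at -3.84 (others -3.15 to -2.52). High list means on that array were adipocyte at 1.16 (others -0.27 to 0.29), endothelium at 0.96 (others 0.17 to 0.41) and extracellular proteases and inhibitors at 1.39 (others 0.59 to 0.97). High too were those of hypertrophy and growth plate at 1.26 (others 0.29 to 0.70) and insulin-like growth factor axis at 0.35 (others -0.52 to -0.12). The low list mean was that of neutrophil granules at 4.25 (others 4.87 to 5.35). On 1-week DMM replicate 2 the genes below all other 1-week arrays were Dusp2 at 0.91 (others 1.51 to 1.92), Postn at -1.70 (others 0.34 to 1.68) and Arntl at -2.15 (others -0.99 to 0.02). In the same direction lay Nr1d2 at -2.34 (others -1.41 to -0.82), Tef at 0.46 (others 1.69 to 2.35) and Serpina3k at -6.88 (others -5.56 to -4.76). Low list means there were core clock and clock output at -1.55 (others -1.23 to -1.06), inflammatory mediators at -0.98 (others -0.75 to -0.62) and macrophage and monocyte at 1.42 (others 2.14 to 2.28). A high one was that of skeletal muscle at -1.91 (others -2.67 to -2.43).

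On 6-week DMM replicate 2, the low genes were the Serpina1 copies and cartilage genes, namely Serpina1a at -1.24 (others 1.40 to 2.42), Serpina1d at -4.07 (others -1.45 to -0.45), Serpina1c at -1.22 (others 1.28 to 2.34), Cnmd at -3.54 (others -0.88 to 1.43) and Comp at 1.62 (others 2.72 to 3.67). On 6-week DMM replicate 1 the high gene was Bhlhe41 at -3.42 (others -5.91 to -4.82). Its low gene was Cry2 at 0.10 (others 0.41 to 0.67). One casein gene was low on 1-week DMM replicate 4, Csn1s2b at -6.94 (others -3.87 to -1.99). The lubricant gene was low on 1-week sham replicate 1, Prg4 at -5.01 (others -2.69 to -0.69). Of these genes, Serpina1a, Serpina1c, Serpina1d, Cnmd, Ank1, Ms4a1, Adamts4, Wnt10a, Mylpf, H2-Ob, Dusp2 and Csn1s2b were called between the times, and each kept its sign without the array named for it. Dusp2 lost its call without that array, and the others kept theirs.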

How the results depend on the processing

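No paired analysis was possible because no label links a mouse killed at 1 week to one killed at 6 weeks. All 849 called genes kept their sign in each alternative, other than 3 genes with normexp background correction, 4 with the mean of a gene's probes, and those the stricter filter dropped (821 were tested). Among the 66 named genes that were not called, 21 changed sign in some alternative.

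The counts of called genes (all, higher, lower) were 507, 384 and 123 with no filter on dim probes, 495, 343 and 152 with no slide term, and 5256, 2899 and 2357 with array weights, where 55.2% of calls were higher in place of 68.2%. Those weights were estimated from the same arrays and set 6-week sham replicate 2 at 0.0784. With 1 mean per group, 175 genes were called lower. In limma the count was 0 on slide 1 only and on slide 2 only (2728 and 4527 genes at an unadjusted p under 0.05), and 0 after sham only and after DMM only (2399 and 3085). Without single arrays the counts ranged from 291 to 2468 for all genes, from 245 to 1509 for higher and from 46 to 959 for lower, all highest without 6-week sham replicate 2 and lowest without 1-week sham replicate 2. The remaining alternatives gave between 644 and 1068 called genes. The difference between surgeries gave 0 calls in limma with normexp, quantile normalization, the authors' table, no slide term and each single array left out (83 to 774 genes at an unadjusted p under 0.05); median scaling, the other filters, slide as a random block, array weights and the mean of probes were not run for it. The cause of these changes was not tested.

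Signal over background limits dim genes: the 7063 genes with the lowest mean levels had 80 higher and 34 lower calls, and 1327 of them were above background on all arrays. Of 84 called named genes, 28 stayed called without any single array.

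Of 88 called genes named by rule or in the liver list, 12 lost their call with normexp background correction, 5 with quantile normalization, 15 with the median in place of the 75th percentile, 30 with no filter, 8 in the authors' table, 26 with no slide term, 6 with slide as a random block, 18 with 1 mean per group, 2 with array weights and 6 with the mean of a gene's probes. Median scaling ended the calls of all 3 platelet genes (Gp5, Gp9, Treml1), both T-cell genes (Cd2, Lat) and Birc5, Btg2, Dusp2, Crtap, Plod3, H1f1, Hk2, Itgam, Pdia4 and Prl2a1.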
